A study of Mus musculus with 4 samples.

Results

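The cells described here are endothelial cells of uninjured mouse hearts with a high count of interferon-stimulated transcripts. A barcode was taken as endothelial when it had at least 500 unique molecular identifiers (UMIs, counted transcript molecules), at most 20% mitochondrial UMIs, at least 2 UMIs of Pecam1, Cdh5 and Egfl7 together, 0 UMIs of Ptprc and fewer than 3 of Dcn and Col1a2 together. Members were the gated cells with at least 3 UMIs, in sum, of 5 selection genes, Ifit1, Ifit2, Ifit3, Rsad2 and Ifi44. They numbered 4145 of 10943 gated endothelial cells (37.9%), and of 41766 barcodes in all 4 libraries. They were set against 3313 endothelial cells of the same libraries with 0 UMIs of these 5 genes, called 0-UMI cells below.

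The study deleted the transcription factor gene Tcf21 in cardiac fibroblasts and profiled heart interstitial cells by droplet single-cell RNA sequencing. The Tcf21-MCM/fl libraries came from tamoxifen-treated mice labelled Tcf21-MerCreMer:flox, in which a tamoxifen-activated Cre recombinase is expressed from the fibroblast gene Tcf21 and a floxed allele is carried. The Tcf21-MCM libraries came from mice with the same Cre, also given tamoxifen, without the flox label, so Cre and tamoxifen were shared by every group. For each genotype 1 library was made from hearts 3 days after myocardial infarction and 1 from uninjured hearts. The labels give neither the number of animals behind a library nor the exons that are floxed, and MerCreMer itself had 0 UMIs in the members of both uninjured libraries. With 1 library per group there is no test between groups, and every interval below is a 95% interval for counting error alone, which does not cover differences between animals, digests or libraries.

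Type I interferons bind the receptor Ifnar1 and Ifnar2, and type II interferon binds Ifngr1 and Ifngr2. Janus kinases then activate transcription factors of the STAT family, which occupy interferon-stimulated response elements (ISRE), together with Irf9, or gamma-activated sites (GAS) in promoters. The induced genes encode proteins that block viral translation and replication, the ubiquitin-like modifier Isg15, GTPases that attack pathogen vacuoles, antigen presentation proteins and the chemokines Cxcl9 and Cxcl10. In vessels, endothelial cells are in direct contact with circulating interferon and display such chemokines to leukocytes.

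The 5 selection genes were fixed by the rule, so their levels describe the choice of cells. Ifit1 (chr19:34640871-34650009, plus strand), Ifit2 (chr19:34550694-34576419, plus strand) and Ifit3 (chr19:34583531-34588731, plus strand) lie in a cluster and encode proteins that bind foreign RNA. Rsad2 (chr12:26442746-26456452, minus strand) encodes viperin, an antiviral radical-SAM enzyme of the endoplasmic reticulum, and Ifi44 (chr3:151730922-151749960, minus strand) encodes an interferon-induced cytoplasmic protein. Positions are those of GENCODE M21 on GRCm38. The promoter windows of Rsad2, Ifit1 and Ifit3 are shown because these genes chose the cells, that of Isg15 because it had the highest ratio of the genes past the level limit given below, and that of Cxcl9 (chr5:92321347-92328079, minus strand) because it was barely higher in the members. Each window runs 5′ to 3′ on the gene's strand from RefSeq (GRCm38.p6), 250 bases before to 50 after the start, and capitals mark matches to GAAANNGAAA on either strand, the core of an ISRE:
Rsad2: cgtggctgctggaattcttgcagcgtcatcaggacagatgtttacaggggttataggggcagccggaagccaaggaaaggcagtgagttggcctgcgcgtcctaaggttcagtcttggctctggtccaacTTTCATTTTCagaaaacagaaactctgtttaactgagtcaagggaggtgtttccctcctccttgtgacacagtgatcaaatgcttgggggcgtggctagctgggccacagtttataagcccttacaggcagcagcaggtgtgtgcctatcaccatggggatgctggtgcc
Ifit1: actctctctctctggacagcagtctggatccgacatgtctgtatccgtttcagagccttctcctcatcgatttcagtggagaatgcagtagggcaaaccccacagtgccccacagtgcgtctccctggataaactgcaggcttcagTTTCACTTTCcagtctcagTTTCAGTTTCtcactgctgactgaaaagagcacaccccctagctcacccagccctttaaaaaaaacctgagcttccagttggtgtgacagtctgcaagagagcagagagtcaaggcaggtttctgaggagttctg
Ifit3: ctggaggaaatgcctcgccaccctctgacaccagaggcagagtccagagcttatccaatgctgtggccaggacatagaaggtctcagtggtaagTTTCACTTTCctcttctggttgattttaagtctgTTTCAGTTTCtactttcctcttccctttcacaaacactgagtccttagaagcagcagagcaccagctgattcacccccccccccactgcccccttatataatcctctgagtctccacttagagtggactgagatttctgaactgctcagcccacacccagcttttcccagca
Isg15: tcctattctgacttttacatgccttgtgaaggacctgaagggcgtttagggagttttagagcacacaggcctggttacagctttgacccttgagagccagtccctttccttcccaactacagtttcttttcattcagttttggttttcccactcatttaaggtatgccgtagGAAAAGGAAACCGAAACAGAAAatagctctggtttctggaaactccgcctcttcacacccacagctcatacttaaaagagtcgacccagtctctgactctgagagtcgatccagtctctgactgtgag
Cxcl9: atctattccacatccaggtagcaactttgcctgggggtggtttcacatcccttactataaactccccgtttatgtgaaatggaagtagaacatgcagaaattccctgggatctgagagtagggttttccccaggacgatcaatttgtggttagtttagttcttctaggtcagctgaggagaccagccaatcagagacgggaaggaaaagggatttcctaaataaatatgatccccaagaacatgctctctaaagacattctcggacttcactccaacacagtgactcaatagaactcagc

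The windows are chr12:26456403-26456702 (minus strand), chr19:34640639-34640938 (plus), chr19:34583279-34583578 (plus), chr4:156200769-156201068 (minus) and chr5:92328030-92328329 (minus), in that order. Rsad2 had 1 match, Ifit1 and Ifit3 had 2 each and Isg15 had 3 overlapping matches, while Cxcl9, Ifi44 and both windows of Ifit2 had none. Among the 39 genes higher in the members (below), 17 of the 32 with a window held the motif (53.1%), against 4.38% of 3884 tested genes with a window and 3.99% of 27025 genes in the table. A GAS core, TTCNNNGAA, which reads the same on both strands, was in 6 of the 32 windows (18.8%), against 7.65% of tested genes and 9.55% of the table. A match is a string of letters in this window, and no match says nothing of sites elsewhere.

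The infarction libraries held 127757911 (Tcf21-MCM/fl) and 129704045 UMIs (Tcf21-MCM), and the uninjured libraries 11541 barcodes and 88509231 UMIs (Tcf21-MCM/fl) and 9149 barcodes and 55710468 UMIs (Tcf21-MCM). Libraries shared 19 to 41 barcode sequences per pair. In the fibroblast gate Tcf21 itself was at 141 CPM (the gene's UMIs scaled to the total UMIs of the summed cells) in the uninjured library labelled Tcf21-MCM/fl and 91.2 CPM in the one labelled Tcf21-MCM, and at 33.6 and 23.7 CPM after infarction, so this 3′ count was not lower in the libraries labelled as floxed. Directions between genotypes below therefore rest on the labels. In the members Tcf21 was at 1.44 and 1.52 CPM.

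The members made up 2750 of 6263 endothelial cells in the library labelled Tcf21-MCM/fl, a share of 43.9% (95% exact binomial interval 42.7 to 45.1), and 1395 of 4680 in the Tcf21-MCM library, 29.8% (28.5 to 31.1). Depth moved with this share: endothelial cells had a median of 5038 UMIs in the Tcf21-MCM/fl library and 3610 in the Tcf21-MCM library. After every cell had been thinned to 2000 UMIs, leaving out 598 and 459 shallower cells, the shares were 20.8% (19.8 to 21.9) in Tcf21-MCM/fl and 15.4% (14.4 to 16.6) in Tcf21-MCM. The log2 ratio of shares was 0.56 (0.47 to 0.65) as counted and 0.43 (0.29 to 0.57) after thinning. The share was thus higher in the Tcf21-MCM/fl library by more than counting error at equal depth, and whether genotype, animal or handling goes with it cannot be told apart.

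Other cell classes gave few such cells at equal depth. Among thinned fibroblasts the share was 1.47% in Tcf21-MCM/fl and 1.13% in Tcf21-MCM, among leukocytes 0.928% and 1.25%, and among mural cells (pericytes and smooth muscle) 3 of 216 cells (1.39%) and 0 of 89, which allows a share of up to 4.06% by the exact interval. Rsad2, the most abundant selection gene in the members, had a UMI in 41.8% and 38.4% of thinned endothelial cells, against 1.76% and 1.19% of fibroblasts, 2.78% and 2.92% of leukocytes and 5.56% and 1.12% of mural cells. The Rsad2 share of endothelial cells thus stood far above that of the other classes at the same number of UMIs per cell.

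**Figure D1:**
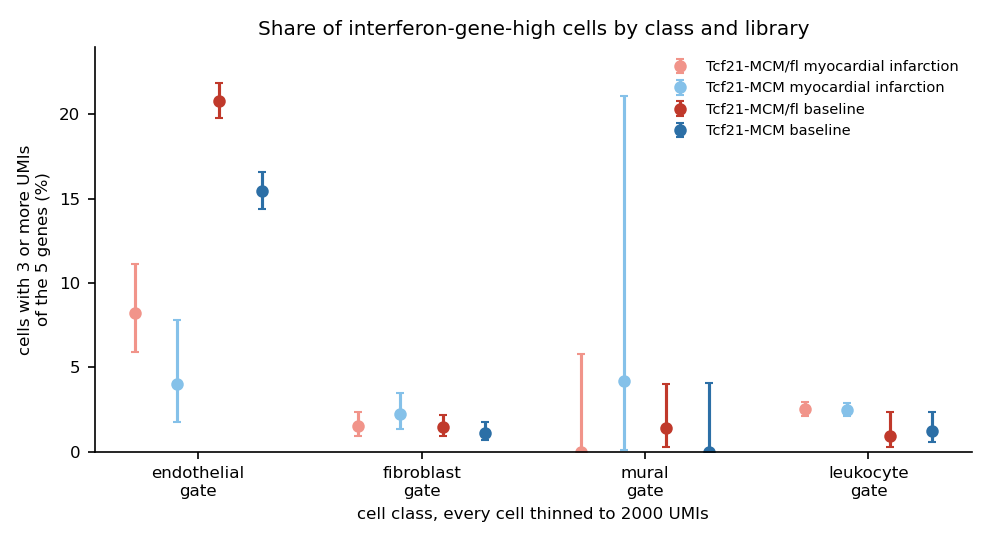
Share of cells with 3 or more UMIs of the 5 selection genes (y axis, percent) in each gated class, after every cell was thinned to 2000 UMIs. Points are libraries and bars are exact binomial intervals. Uninjured endothelial cells reached 20.8% and 15.4%, and the uninjured fibroblast, mural and leukocyte gates did not exceed 1.47%.

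Infarcted hearts gave fewer members. At 3 days 109 of 524 gated endothelial cells (20.8%) in Tcf21-MCM/fl and 30 of 223 (13.5%) in Tcf21-MCM passed the rule. Thinned, the infarction shares were 8.23% (5.89 to 11.1) and 4.04% (1.76 to 7.81), below the uninjured shares of 20.8% and 15.4% in the same genotypes. The infarction libraries are used below to see whether the genes that marked the uninjured members also marked these cells, and to set the genotypes side by side over all gated endothelial cells.

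Rsad2 dominated the selection. In Tcf21-MCM/fl members it supplied 13540 UMIs, 52.0% of those of the 5 genes, and was seen in 92.1% of the cells, and in Tcf21-MCM members 5756 UMIs, 60.4%, in 92.3% of the cells. Each of the other 4 genes was seen in 39.1% to 49.5% of Tcf21-MCM/fl members and 27.4% to 44.2% of Tcf21-MCM members, Ifit2 being the most frequent in both. All 5 genes were seen together in 13.0% and 5.81% of members. The cells that passed on Rsad2 alone numbered 543 in Tcf21-MCM/fl (19.7%) and 428 in Tcf21-MCM (30.7%), and those with at least 3 UMIs of the other 4 genes 1346 (48.9%) and 476 (34.1%). Reads of Ifit3 and its near-identical neighbour Ifit3b could be divided between them by the counting, so their split is uncertain.

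The limit of 3 UMIs cut through a continuum. Just inside it, 550 Tcf21-MCM/fl and 389 Tcf21-MCM cells had exactly 3 UMIs, and just outside it 740 and 565 cells had exactly 2. Isg15, the secreted and conjugated ubiquitin-like protein, stood at 132 and 117 CPM in the cells with 3 UMIs and at 112 and 70.6 CPM in those with 2. At the top, 269 and 39 cells had 20 or more UMIs and reached 999 and 946 CPM of Isg15, against 67.5 and 37.2 CPM in 0-UMI cells. Irf7, the transcription factor that amplifies type I interferon output, ran in the same order, with 238 and 254 CPM in the top class and 50.4 and 26.0 CPM in 0-UMI cells. Pecam1, an adhesion protein of endothelial junctions, stayed between 981 and 1025 CPM across the Tcf21-MCM/fl classes and between 1185 and 1313 CPM across the Tcf21-MCM classes. Pecam1 is a gene of the endothelial gate, so the cells of every class were chosen partly on it.

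**Figure D2:**
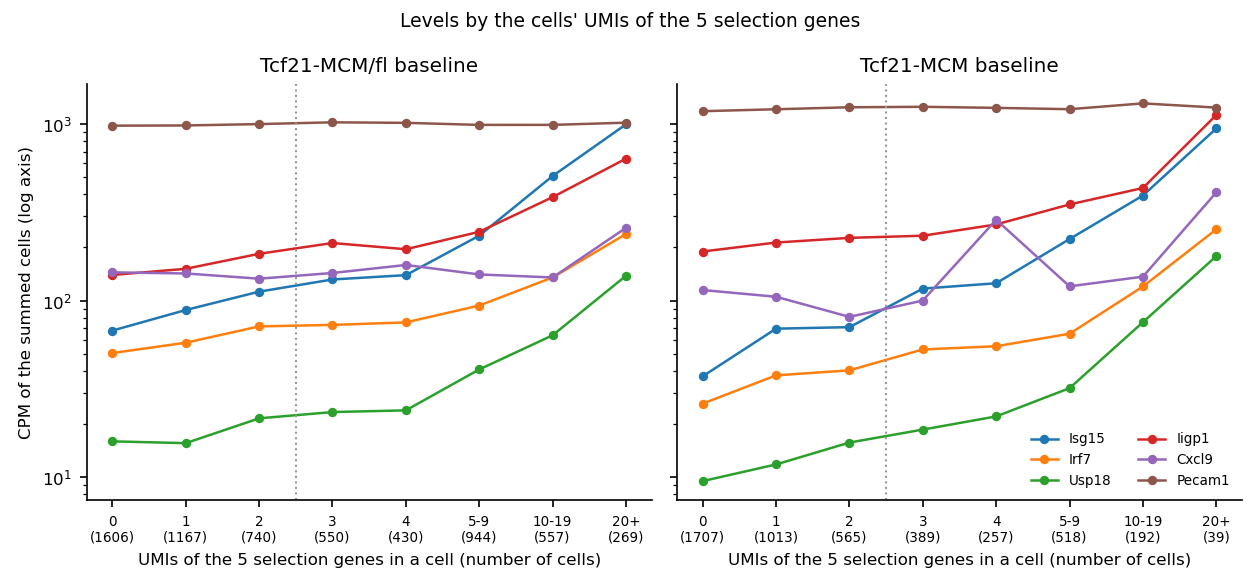
Levels of single genes (y axis, CPM of summed cells, log axis) in gated endothelial cells grouped by their UMIs of the 5 selection genes (x axis, with cell numbers), for the Tcf21-MCM/fl library (left) and the Tcf21-MCM library (right). The dotted line is the limit of 3 UMIs. Isg15 climbed to 999 and 946 CPM in the top class, and Pecam1, a gene of the endothelial gate, stayed level. Cxcl9 changed little below the top class except in the 257 Tcf21-MCM cells with 4 UMIs.

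The 39 higher genes were next followed over subsets of the endothelial cells. These subsets were cut on the rule's own genes, so they cannot check the name interferon-responding. In the members with at least 3 UMIs of the 4 genes other than Rsad2, 38 of the 39 higher genes were at least 1.5-fold above 0-UMI cells in each library, with medians of 1.29 and 1.43 on the log2 scale (share of all tested genes past that fold 1.61% in Tcf21-MCM/fl and 1.67% in Tcf21-MCM). In members with 1 or 2 UMIs of those 4 genes the counts were 11 and 20 (0.31% and 0.93% of all genes), with medians of 0.47 and 0.59. In non-members with 1 or 2 UMIs of the 5 genes they were 2 and 3 (0.0413% and 0.0826% of all genes). In members with Rsad2 alone they were 2 and 4 (0.269% and 0.661% of all genes), with medians of 0.14 and 0.23. The subsets share the 0-UMI cells and are drawn from the cells that picked the 39 genes, so the counts describe how the signal is spread over the members and test nothing.

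Single genes showed the same split. Isg15 was at 591 and 469 CPM in members with at least 3 UMIs of the other 4 genes, at 139 and 117 CPM in those with 1 or 2, and at 64.4 and 62.0 CPM in those with Rsad2 alone, against 67.5 and 37.2 CPM in 0-UMI cells. Rsad2-alone members were thus at the 0-UMI level of Isg15 in Tcf21-MCM/fl and 0.74 log2 units above it in Tcf21-MCM. Usp18, the protease that removes Isg15 from proteins, and Ifit3b, both named after their values were seen, gave ratios of 2.35 and 2.98 and of 3.25 and 2.97 in the first subset, and of -0.02 and 1.0 and of 0.03 and -0.36 in Rsad2-alone cells. Rsad2-alone cells were chosen for 0 UMIs of the other 4 genes, so low levels of genes that go with those 4 are partly built in. The cells are called interferon-gene-high endothelial cells here, after the rule that chose them. These subsets do not decide between that name and interferon-responding.

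**Figure D3:**
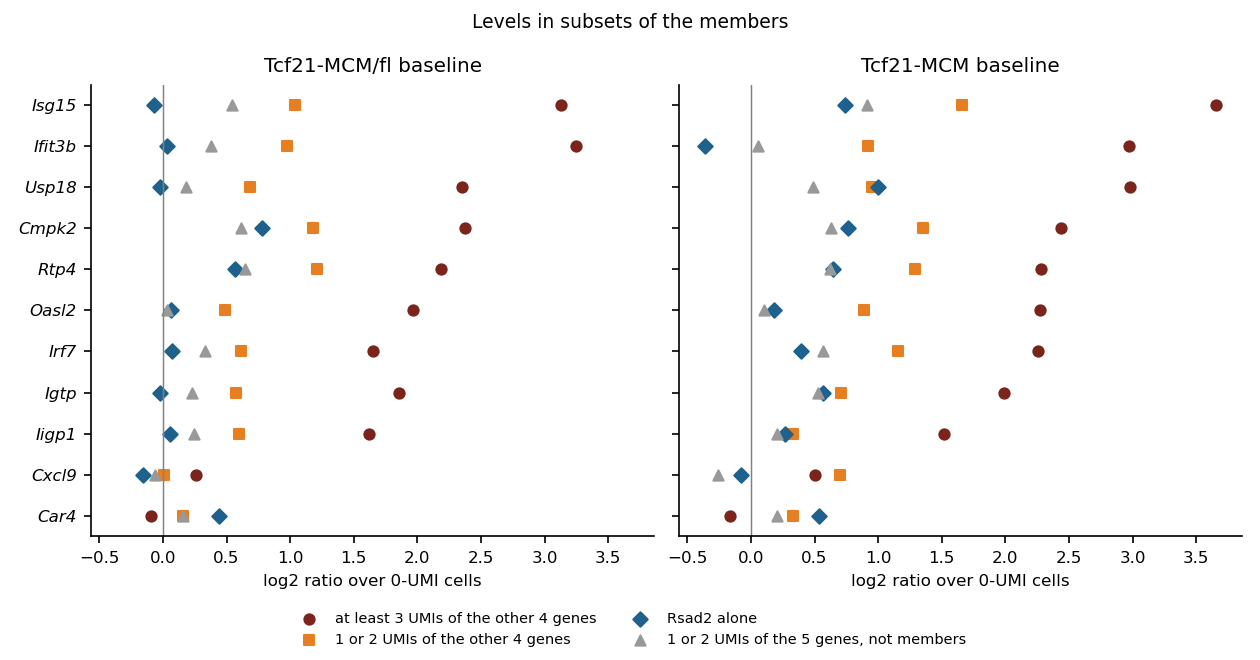
Log2 ratio over 0-UMI cells (x axis) of single genes in subsets of endothelial cells, Tcf21-MCM/fl left and Tcf21-MCM right. Circles are members with at least 3 UMIs of the 4 genes other than Rsad2, squares members with 1 or 2, diamonds members with Rsad2 alone, and triangles non-members with 1 or 2 UMIs of the 5 genes. Isg15 lay at 3.13 and 3.66 in the circles and at -0.07 and 0.74 in the diamonds.

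Across the transcriptome, 4840 genes passed a level limit (in each library, 30 CPM or more as the mean of the 2 sums, and 10 UMIs or more in total). Of these, 39 (0.806%) were at least 1.5-fold higher in the members in both libraries and 24 (0.496%) at least 1.5-fold lower, without the 5 selection genes. In single libraries 46 (0.95%) and 52 (1.07%) were higher, and 41 (0.847%) and 30 (0.62%) lower, in Tcf21-MCM/fl and Tcf21-MCM. The median over all tested genes was 0.01 in Tcf21-MCM/fl and 0.04 in Tcf21-MCM on the log2 scale. Members were deeper, with medians of 6010.5 and 4264 UMIs, against 3757.5 and 3181 UMIs in 0-UMI cells. When the 0-UMI cells were limited to depths between the 10th and 90th percentile of the members, all 39 genes were called again among 44 higher genes. This window bounds the depth and does not match its distribution. Of the 39, 34 were on lists of interferon-related genes and Cd274, the immune checkpoint ligand PD-L1, was on the adhesion and activation list. The other 4, named after their values were seen, were Gm4070, Slfn3, Col15a1, a basement membrane collagen, and Lgals9, a galectin. In fibroblasts or other classes Col15a1 stood more than 10-fold above the endothelial level, so free RNA could reach it, and its part was not tested.

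**Figure D4:**
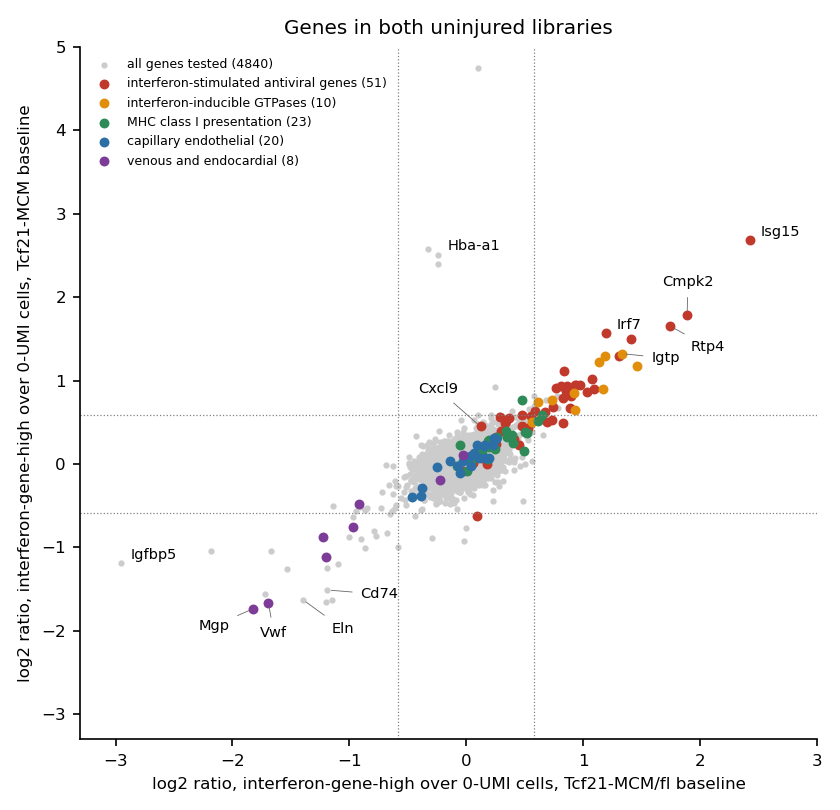
Each point is a gene, placed by its log2 ratio of interferon-gene-high over 0-UMI cells in the Tcf21-MCM/fl library (x axis) and the Tcf21-MCM library (y axis). Coloured points belong to 5 gene lists, and dotted lines mark 1.5-fold. Isg15 lies farthest at upper right (2.43 and 2.69), Mgp, Vwf and Eln at lower left, and Hba-a1 is split between libraries (-0.24 and 2.51).

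Isg15 led the higher genes. It stood at 364 CPM in members and 67.5 CPM in 0-UMI cells of Tcf21-MCM/fl, a log2 ratio of 2.43 (2.29 to 2.58). In Tcf21-MCM it stood at 239 CPM in members and 37.2 CPM in 0-UMI cells, 2.69 (2.48 to 2.90). At equal depth Isg15 was seen in 37.1% and 26.4% of members, against 10.5% and 6.85% of 0-UMI cells. The second gene, Cmpk2, a mitochondrial nucleotide kinase encoded beside Rsad2, was at 91.7 CPM in members and 24.7 CPM in 0-UMI cells of Tcf21-MCM/fl (1.89, 1.66 to 2.14). In Tcf21-MCM it was at 81.9 CPM in members and 23.8 CPM in 0-UMI cells (1.78, 1.51 to 2.06). In both genes the counting intervals of the compared sums lay far apart.

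Among antiviral effectors, 25 of the 51 genes of a 98-gene list that passed the level limit were higher in both libraries and none was lower in both. The list's median was 0.69 in Tcf21-MCM/fl and 0.59 in Tcf21-MCM, and 49 of the 51 had log2 ratios above 0 in both. Rtp4, a chaperone that inhibits viral replication, was at 132 CPM in members and 39.4 CPM in 0-UMI cells of Tcf21-MCM/fl, and at 85.5 CPM in members and 27.2 CPM in 0-UMI cells of Tcf21-MCM. Oasl2, a relative of the oligoadenylate synthetases, gave log2 ratios of 1.42 and 1.495, Eif2ak2, the double-stranded RNA-dependent kinase PKR, 1.31 and 1.30, Parp14, an ADP-ribosyltransferase, 0.94 and 0.95, and Phf11d 0.93 and 0.95. Abundant genes of the list differed less. Ifitm3, which blocks virus entry, was at 2199 CPM in members and 1520 CPM in 0-UMI cells of Tcf21-MCM/fl (0.53), and at 1655 and 1224 CPM in Tcf21-MCM (0.43). Bst2, the tether that holds budding virions, was called at 0.75 and 0.68. Ifitm2 was at -0.03 and -0.09, and Ifi27l2a at 0.09 and -0.63.

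The interferon-inducible GTPases had medians of 1.03 in Tcf21-MCM/fl and 0.87 in Tcf21-MCM. Of 20 measured, 10 passed the limit and 9 of these were higher in both libraries, Gbp4 being the exception at 0.57 and 0.50. Igtp, which acts on pathogen vacuoles, was at 50.03 CPM in members and 19.8 CPM in 0-UMI cells of Tcf21-MCM/fl (1.33, 1.07 to 1.61), and at 54.1 and 21.6 CPM in Tcf21-MCM (1.32, 1.03 to 1.62). Irgm2 and Irgm1, which regulate the other immunity-related GTPases, gave 1.46 and 1.17 and 1.13 and 1.23. Gbp3, a guanylate-binding protein, gave 1.19 and 1.29. Iigp1, the immunity-related GTPase listed as a marker of these cells but not used in the rule, was at 315 CPM in members and 140 CPM in 0-UMI cells of Tcf21-MCM/fl (1.18, 1.07 to 1.28). In Tcf21-MCM it was at 354 and 190 CPM (0.90, 0.80 to 1.0). Genes of both GTPase families are close paralogs, and the counting may divide reads between them.

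Among 17 receptor and JAK-STAT genes that passed of 24, the transcription factors Irf9 and Stat2 were called higher and the receptors were not. Irf9 gave 0.97 and 0.95 and Stat2 0.88 and 0.86. The receptor chains Ifnar1 (-0.04 and 0.18), Ifnar2 (0.18 and 0.07), Ifngr1 (-0.06 and -0.08) and Ifngr2 (0.03 and 0.23) stayed within 0.25 log2 units of 0-UMI cells, as did Jak1 and Irf1. Interferon transcripts themselves were almost unseen: none of 21 ligand genes passed the limit, and their summed level was 0.0513 CPM in members and 0.315 CPM in 0-UMI cells of Tcf21-MCM/fl, and 0 and 0.169 CPM in Tcf21-MCM. Of 10 nucleic acid sensing genes that passed, 4 were called, the RNA sensors Ddx58 (RIG-I; 0.67 and 0.62) and Ifih1 (MDA5; 0.82 and 0.94), the kinase Eif2ak2 and Irf7 (1.199 and 1.57), while Tmem173 (STING) was at -0.41 and -0.26.

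Antigen presentation and chemokines were closer to the 0-UMI cells. None of 23 class I genes that passed was called in both libraries, with medians of 0.25 and 0.25, although 20 had log2 ratios above 0 in both. H2-K1, a class I heavy chain, was at 1111 CPM in members and 1051 CPM in 0-UMI cells of Tcf21-MCM/fl (0.08), and at 1046 and 959 CPM in Tcf21-MCM (0.12). The immunoproteasome subunit Psmb8 (0.61 and 0.52) and the peptide transporter Tap1 (0.48 and 0.77) came nearest to a call. Cxcl9, the T cell chemoattractant listed as a marker of these cells, was at 157 CPM in members and 145 CPM in 0-UMI cells of Tcf21-MCM/fl (0.12, 0.01 to 0.23), and at 157 and 115 CPM in Tcf21-MCM (0.45, 0.31 to 0.59). At equal depth it was seen in 19.9% of members and 18.3% of 0-UMI cells in Tcf21-MCM/fl, and in 16.1% and 15.8% in Tcf21-MCM. As a marker it therefore did not set the members apart. Cxcl10, named after its values were seen, had 66.9% and 74.5% of its member UMIs in 10 cells.

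**Figure D5:**
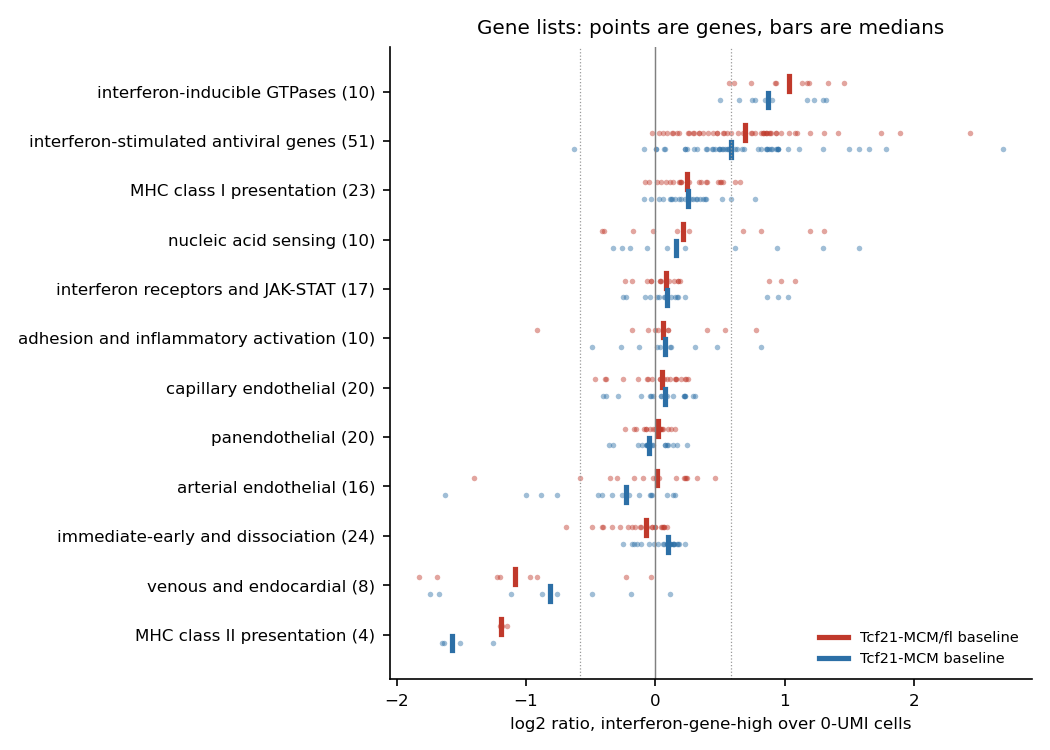
Log2 ratios of interferon-gene-high over 0-UMI cells (x axis) for genes past the level limit on 12 lists (rows, number of genes in parentheses), Tcf21-MCM/fl above Tcf21-MCM in each row. Points are genes, bars are medians, and dotted lines mark 1.5-fold. GTPases (medians 1.03 and 0.87) and antiviral genes (0.69 and 0.59) lie to the right, venous and endocardial genes (-1.09 and -0.82) to the left.

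Capillary and panendothelial genes stood near the level of the 0-UMI cells. None of 20 capillary genes (medians 0.05 and 0.07) and none of 20 panendothelial genes (0.02 and -0.05) was called in both libraries. The panendothelial list includes Pecam1, Cdh5 and Egfl7, on which the cells were gated. Gpihbp1, the capillary anchor of lipoprotein lipase, had a UMI in 87.3% of thinned members and 84.3% of thinned 0-UMI cells of Tcf21-MCM/fl, and in 92.0% and 88.7% in Tcf21-MCM. Rgcc, a capillary marker, was seen in 79.2% of members and 70.1% of 0-UMI cells in Tcf21-MCM/fl, and in 79.3% and 71.7% in Tcf21-MCM. Among thinned cells with Rgcc the share of members was 21.4% (20.2 to 22.7) in Tcf21-MCM/fl and 16.7% (15.4 to 18.1) in Tcf21-MCM, against 18.8% (16.8 to 21.0) and 11.6% (9.71 to 13.7) without it. Car4, of the same list, gave 21.4% with and 20.5% without it in Tcf21-MCM/fl, and 16.6% and 14.7% in Tcf21-MCM. The Car4 intervals overlapped in both libraries. Fatty acid, VEGF and Notch, and immediate-early lists had medians between -0.07 and 0.10 in both libraries, with none of their genes called.

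Several venous and endocardial markers were lower in the members. Of 8 venous and endocardial genes that passed of 16, 5 were called lower (medians -1.09 and -0.82). Vwf, the platelet-tethering glycoprotein enriched in veins and endocardium, was at 15.6 CPM in members and 50.4 CPM in 0-UMI cells of Tcf21-MCM/fl (-1.69, -1.92 to -1.46), and at 21.5 and 68.4 CPM in Tcf21-MCM (-1.67, -1.95 to -1.40). Mgp, the matrix calcification inhibitor, gave -1.83 and -1.74 but reached 6092 and 6217 CPM in another class. Arterial genes were not lower as a list: of 16 that passed of 21, 1 was called lower, and medians were 0.02 and -0.23. In single libraries 1 was at least 1.5-fold lower in Tcf21-MCM/fl and 4 in Tcf21-MCM. Log2 ratios were above 0 in both libraries for 3 of the 16 and below 0 in both for 7. The called gene was Eln, the elastin of arterial walls, at -1.40 and -1.63. Vwf was seen in 1.41% of thinned members and 4.02% of thinned 0-UMI cells of Tcf21-MCM/fl, and in 2.57% and 5.10% in Tcf21-MCM, so these bed markers concern few cells. Turned round, 10.8% (6.01 to 17.4) of Vwf-positive and 21.0% (19.98 to 22.1) of Vwf-negative thinned cells were members in Tcf21-MCM/fl, and 7.55% (3.96 to 12.8) and 15.8% (14.6 to 16.9) in Tcf21-MCM. The venous factor Nr2f2 gave 13.8% of positive and 21.2% of negative cells in Tcf21-MCM/fl, with intervals apart, and 12.4% and 15.7% in Tcf21-MCM, with overlapping intervals. Npr3, of the same list, gave 10.9% and 20.9% in Tcf21-MCM/fl but 16.7% and 15.4% in Tcf21-MCM. Plvap gave 15.4% and 20.8% in Tcf21-MCM/fl, and 4.55% and 15.5% in Tcf21-MCM. Few cells were positive (46 and 30 for Npr3, 26 and 22 for Plvap), and the intervals of both genes overlapped in both libraries. Some arterial markers gave lower shares as well. In Tcf21-MCM, 10.3% (7.21 to 14.2) of Fbln5-positive and 15.9% (14.7 to 17.1) of Fbln5-negative cells were members. In Tcf21-MCM/fl they were 18.5% and 21.0%, with overlapping intervals. Gja4 gave 11.2% and 15.6% in Tcf21-MCM, and Eln 10.6% and 15.8%, with overlapping intervals. Sema3g gave 13.4% and 15.7% there, but 22.8% and 20.6% in Tcf21-MCM/fl.

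Many of the lower genes belong to other cell classes. Of the 24, 20 stood in the endothelial sums at under 0.1 of their level in another class. Among them were Mgp, Nr2f2 and Bgn of the venous and endocardial list, the phagocyte genes C1qa and Lyz2, the 4 class II genes that passed (Cd74, H2-Aa, H2-Ab1 and H2-Eb1) and the secreted Igfbp5. Cd74, the class II invariant chain, was at 53.4 CPM in members and 122 CPM in 0-UMI cells of Tcf21-MCM/fl, and at 96.9 and 276 CPM in Tcf21-MCM, with up to 9508 and 10776.5 CPM in another class. The summed mononuclear phagocyte list was at 130 CPM in members and 368 CPM in 0-UMI cells of Tcf21-MCM/fl, and at 221 and 544 CPM in Tcf21-MCM, with no list gene at 0. The lymphatic list was at 104 and 196 CPM in Tcf21-MCM/fl, and at 131 and 364 CPM in Tcf21-MCM, in the same order. The part of free RNA or mixed droplets in these differences was not tested. With a stricter endothelial gate (at least 1 UMI of each of Pecam1, Cdh5 and Egfl7, and 0 of Dcn and Col1a2), 34 genes were higher and 3 lower, and Mgp and Igfbp4 were the shared lower calls. Under that gate Vwf was at -1.62 and -2.17 but below the level limit, and Igfbp5 turned to 0.27 in Tcf21-MCM.

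Within the members the median genotype ratios of the interferon lists were near 0, but the rule bears on them. Members of both libraries were cut at the same 3 UMIs of interferon genes. Their median depths were 6010.5 UMIs in Tcf21-MCM/fl and 4264 in Tcf21-MCM. The cut thus partly sets these levels, so the ratios cannot show how alike the genotypes are. Ratios over all gated endothelial cells are given further below. Of 4801 genes tested, 164 (3.42%) were at least 1.5-fold higher in Tcf21-MCM/fl members and 87 (1.81%) lower. Among 0-UMI cells the same counts were 164 (3.42%) and 75 (1.56%), so members gave about as many as cells outside the rule. The median of the antiviral list was 0.08 in members, where 3 genes were higher in Tcf21-MCM/fl and none was lower, and that of the GTPases -0.09 with none called. The 39 genes had a median of 0.03, and 2 of them were higher and 1 lower. Isg15 was at 364 CPM in Tcf21-MCM/fl members and 239 CPM in Tcf21-MCM members (0.61, 0.53 to 0.68).

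The genes that differed most between genotypes in members differed in 0-UMI cells as well. Ifi27l2a, an interferon-induced gene, was at 113 CPM in Tcf21-MCM/fl members and 36.6 CPM in Tcf21-MCM members (1.63, 1.45 to 1.82), and at 0.91 in 0-UMI cells. Gm47283 (1.70), Nr4a1, an immediate-early nuclear receptor (1.34), and the haemoglobin genes Hba-a1 (1.41) and Hba-a2 (1.40) were also higher in Tcf21-MCM/fl members, and their ratios in 0-UMI cells were 1.99, 1.51, 4.17 and 4.31. Nxpe4 (-1.47), Sec61a1, a subunit of the protein translocation channel (-1.46), Ccdc80 (-1.33), Gm42418 (-1.20) and Ttll7 (-1.19) were lower, and in 0-UMI cells they were at -0.88, -1.44, -1.05, -1.15 and -1.32. Gm42418 alone held 43630 CPM of Tcf21-MCM/fl members and 100016 CPM of Tcf21-MCM members, and with scaling by the median of ratios in place of total UMIs 205 genes were higher and 70 lower.

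Over all gated endothelial cells 3 of the 5 selection genes were at least 1.5-fold higher in Tcf21-MCM/fl at baseline. At baseline Ifit3 was at 101 CPM in Tcf21-MCM/fl and 49.1 CPM in Tcf21-MCM (1.04, 0.94 to 1.15), Ifit1 at 93.4 and 48.6 CPM (0.94) and Ifi44 at 86.0 and 51.3 CPM (0.75). Rsad2, at 421 and 366 CPM (0.20), and Ifit2, at 106 and 88.8 CPM (0.26), differed less. Isg15 was at 239 CPM in Tcf21-MCM/fl and 123 CPM in Tcf21-MCM (0.96, 0.89 to 1.02). The antiviral list had a median of 0.20 with 6 of 52 genes at least 1.5-fold higher and none lower, where 3.98% of 5127 genes were higher and 2.05% lower. After infarction the selection genes were split. Ifit1 was at 37.6 CPM in Tcf21-MCM/fl and 65.4 CPM in Tcf21-MCM (-0.80, -1.15 to -0.44), Ifit3 at 39.1 and 49.8 CPM (-0.35, -0.72 to 0.03) and Isg15 at 179 and 185 CPM (-0.05, -0.23 to 0.13). Rsad2 was at 104 CPM in Tcf21-MCM/fl and 70.8 CPM in Tcf21-MCM (0.55, 0.27 to 0.83), Ifi44 at 57.5 and 43.9 CPM (0.39, 0.03 to 0.76) and Ifit2 at 41.1 and 49.4 CPM (-0.26, -0.64 to 0.11). The antiviral list had a median of 0.16 there, with 5 of 44 genes higher and none lower, the GTPases 0.30 and the class I list 0.38 with 5 of 21 higher, where 6.8% of 4958 genes were higher and 2.56% lower. Such shifts were not particular to interferon lists. The capillary list was at 0.91 with 13 of 19 genes higher, the arterial list at 0.53 with 7 of 15 higher, and the class II list at -1.59.

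The 39 genes were also followed in libraries and cells that the rule did not use. The high cells there were again picked on the same 5 genes. The level limit used the mean of the high and 0-UMI levels, so a gene could pass through the high cells alone. The counts below describe these cells and test nothing. In the infarction libraries 33 of the 39 passed the level limit in each, and all 33 were at least 1.5-fold higher in the 109 Tcf21-MCM/fl cells with 3 or more UMIs than in the 266 with 0, where 4.1% of all tested genes were. In Tcf21-MCM after infarction, 33 of 33 were higher between 30 and 142 cells, where 13.2% of all genes were. Medians were 1.29 and 1.92. Isg15 was at 418 CPM in high cells and 60.1 CPM in 0-UMI cells of infarcted Tcf21-MCM/fl hearts (2.80, 2.46 to 3.14), and at 713 and 43.3 CPM in Tcf21-MCM (4.04, 3.596 to 4.52). The summed Cxcl9 level was higher in high cells there, at 69.4 CPM against 15.4 CPM in 0-UMI cells of Tcf21-MCM/fl (2.18, 1.48 to 2.93). In Tcf21-MCM it had 24 UMIs against 4. How these few UMIs were spread over cells was not examined, unlike at baseline. Of the 24 lower genes, 10 and 9 of the 19 that passed were lower (4.17% and 4.86% of all genes). Mgp was at 0.85 in Tcf21-MCM/fl (0.70 to 1.0), so its direction at baseline was not kept there. In Tcf21-MCM it was at -0.43 (-0.99 to 0.11), the baseline direction with an interval that included 0. The high cells were deeper here as well, with medians of 6165 and 12520 UMIs, against 3647 and 4482.5 in 0-UMI cells, and the part of depth was not tested.

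Uninjured fibroblasts picked by the same 5 genes shared most of the higher genes that passed the level limit. Here too a gene could pass through the high cells alone. In 259 Tcf21-MCM/fl and 123 Tcf21-MCM fibroblasts with 3 or more UMIs, 27 of 28 and 27 of 29 of the 39 genes that passed were at least 1.5-fold higher than in 0-UMI fibroblasts (1.26% and 1.31% of all genes), with medians of 1.21 and 1.57. The selection genes were mixed otherwise there: Ifit3 was at 230 and 240 CPM and Rsad2 at 45.5 and 58.8 CPM in those fibroblasts, whereas in the endothelial members Ifit3 was at 168 and 112 CPM and Rsad2 at 695 and 798 CPM. Of the 24 lower genes, 3 of 17 and 4 of 18 that passed were lower in these fibroblasts (1.01% and 0.379% of all genes). Cxcl9, at 157 CPM in endothelial members of each library, had 6 and 1 UMIs in the fibroblasts. Ratios between classes such as these rest on different cells and have no replicate.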

How the data were processed

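The authors deposited matrices of raw UMI counts, genes by selected barcodes, for 4 droplet libraries (10x 3′ chemistry). Per the submitters' processing notes they were made with Cell Ranger 5.0.1 on mm10, and other settings are not given in the sources used here. Members and gene lists were chosen with earlier results of these data known, so nothing here is an independent test.

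Counts were summed per library over members and over 0-UMI cells and given as CPM with exact Poisson intervals. Ratios have exact conditional intervals at 95%, with a floor of 3 UMIs for a sum below it, and shares have exact Clopper-Pearson intervals. A gene was called when it was at least 1.5-fold different in the same direction in both libraries. Of 20690 uninjured barcodes, 569 failed the UMI or mitochondrial limit. Members held 19487024 UMIs in Tcf21-MCM/fl and 7215138 in Tcf21-MCM, and 0-UMI cells 6352810 and 5919587, so the Tcf21-MCM ratios are the less precise.

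Named genes were the 7 markers of the cells, the 15 highest and 10 lowest called genes ranked by the weaker library, the 5 each way between genotypes, up to 4 each way of each list, all genes of lists of up to 12, and Tcf21. Any other gene was named after its values were seen, among them the receptor chains, Jak1, Irf1, Ifitm2, Ifitm3 and H2-K1. A gene was marked as open to free RNA when its endothelial level was under 0.1 of that in another gated class. Doublets were kept, and removed as an alternative with scrublet scores at an expected 0.8% per 1000 barcodes. Other alternatives changed the UMI limit, mitochondrial limit, gate, depth, level limit, fold, scaling and the summary over cells. A rule without Rsad2 was added after seeing the data. The ratio and call steps were checked on simulated data. Python 3.11.15, numpy 2.4.6, scipy 1.17.1, pandas 2.3.3, scanpy 1.11.5 and matplotlib 3.10.9 were used. Results for some genes are not reported here.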

Additional observations from a re-analysis of the deposited data

Results flagged for a closer look

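The haemoglobin genes differed in opposite directions between the uninjured libraries, in members against 0-UMI cells. The log2 ratio of Hba-a1 was -0.24 in Tcf21-MCM/fl and 2.51 in Tcf21-MCM, that of Hba-a2 -0.33 and 2.58, and that of Hbb-bs -0.24 and 2.39, with every counting interval away from 0. The difference between the libraries was not tested, as each group has 1 library. The UMIs sat in few cells: 10 cells held 59.0% of the Hba-a1 UMIs of Tcf21-MCM/fl members and 96.6% of those of its 0-UMI cells, and 99.4% and 95.8% in Tcf21-MCM. Hba-a1 and Hba-a2 are near-identical, so their split is uncertain.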

How the results depend on the processing

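No paired analysis was possible because the compared groups share fewer than 2 replicate numbers. With at least 5 UMIs the shares were 28.3% in Tcf21-MCM/fl and 16.004% in Tcf21-MCM (log2 ratio 0.82), 59 genes were higher (all 39 among them), and medians were 0.85 and 0.80 for antiviral genes and 1.36 and 1.17 for GTPases. The rule without Rsad2, chosen after seeing the data, gave shares of 21.5% and 10.2% (1.08), 71 higher genes (38 shared), antiviral medians of 1.04 and 1.08, GTPase medians of 1.61 and 1.55, a class I median of 0.37 in Tcf21-MCM/fl, a venous and endocardial median of -0.56 in Tcf21-MCM, and Igfbp5 at 0.040 in Tcf21-MCM. The stricter gate gave shares of 46.7% and 31.3%, 3 lower genes, 132 genes lower between genotypes in members, capillary medians of -0.064 and 0.00018, venous and endocardial medians of -0.41 and -0.38, and Igfbp5 at 0.27 in Tcf21-MCM. A mitochondrial limit of 10% gave a share of 45.3% in Tcf21-MCM/fl. Thinning gave 20.8% and 15.4% (0.43). The mean of per-cell CPM gave a capillary median of 0.18 in Tcf21-MCM/fl. A mean of at least 100 CPM left 14 higher and 3 lower genes, and 99 and 26 between genotypes. Without a CPM limit the counts were 153, 716, 884 and 1150, and at 2-fold 11, 14, 15 and 9, in the same order. For single named genes, 355 values stayed within their counting interval, 129 moved and the 2 of Igfbp5 reversed. The causes were not tested. Removing doublets gave 41 higher and 23 lower genes, the depth window 44 and 22, and median of ratios scaling 37 and 28, all within 1.5 times of 39 and 24. Counting error limits rare genes most, above all in the 39 Tcf21-MCM cells with 20 or more UMIs.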
